A study of Mus musculus with 24 samples.

Results

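Whether loss of CBFβ had a different effect on gene expression before and after Notch stimulation was examined as the stage by *Cbfb* interaction in Cas9-LP cells. For each gene, the interaction was the difference between sgCbfb and sgControl in Phase 1 cells less the same difference in unstimulated lymphoid progenitors (LPs), on the scale log2(CPM + 1), where CPM is the number of reads on a gene scaled by the library's total. A positive interaction therefore means that the ratio of sgCbfb over sgControl was higher in Phase 1 cells than in LPs, and a negative one that it was lower, whichever way the gene moved at either stage. It was computed from 12 of the 24 libraries of the series, with 3 libraries in each of 4 groups.

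All 4 groups were Cas9-LP cells, lines made from fetal liver progenitors of *Ebf1*-deficient mice with a Rosa26-Cas9 knock-in, so that *Ebf1* deficiency, which blocks B cell development, and Cas9 were shared by the controls. Cells carried either sgControl, which targets luciferase, or sgCbfb, in a retroviral vector that also encodes the surface marker hNGFR, and hNGFR+CD45+ cells were sorted 5 days after transduction. LPs were kept on OP9 stroma, and Phase 1 cells are LPs that received Notch stimulation for 2 days on OP9-DLL4, stroma that presents the Notch ligand DLL4. Stage and stroma line thus cannot be told apart. The labels number 3 replicates per group. The study's methods call the replicates biologically independent, and no source used here says whether they came from separate lines. Each library is a pool of sorted cells, in which fewer expressing cells and less RNA per cell cannot be told apart.

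CBFβ is the shared partner that stabilises RUNX1, RUNX2 and RUNX3 on DNA, so its loss impairs all RUNX factors together. RUNX factors can activate or repress a gene, according to the partners present at its regulatory elements. Notch signalling starts the T-lineage program in lymphoid progenitors by releasing the intracellular domain of the receptor, which joins RBPJ on DNA and switches on regulators such as *Tcf7* and *Gata3*.

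Each library was sequenced from the 3′ ends of transcripts and held between 1363263 and 1743319 reads on genes, so that 1 read was worth 0.574 to 0.734 CPM and a count of 0 allowed up to 2.20 CPM. Between 12500 and 13241 genes had at least 1 read per library, and the share of mitochondrially encoded transcripts was 7.02% to 7.87%. The defining stromal markers *Col1a1*, *Col1a2*, *Col3a1*, *Fn1*, *Cxcl12*, *Pdgfra* and *Acta2* were at or below 1.43 CPM in every library. A further stromal marker, *Sparc*, had 2.36 to 7.78 CPM in Phase 1 sgCbfb and at most 1.77 CPM elsewhere, and its part in the results was not tested. The whole list of 23 stromal genes summed to 905 to 1037 CPM in LP sgControl and 1490 to 1723 CPM in LP sgCbfb. In Phase 1 it summed to 863 to 968 CPM in sgControl and 1060 to 1242 CPM in sgCbfb. Most of this was *Igfbp4*, with means of 925 and 1509 CPM in LPs and 893 and 1111 CPM in Phase 1, sgControl before sgCbfb. The source of these reads was not tested. The genes *Cd4*, *Cd8a* and *Cd8b1* of mature T cells were at or below 3.44 CPM. Replicate 3 of Phase 1 sgControl stood somewhat apart, with a correlation of 0.9215 to its own group against 0.9349 to 0.9543 for the other libraries. The numbers of called genes are therefore also given without it, over all genes and for each list described here whose count changed.

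The targeted gene itself was read first. *Cbfb*, on chr8, had 92.7, 91.0 and 75.8 CPM in LP sgControl and 45.8, 39.0 and 35.7 CPM in LP sgCbfb. In Phase 1, the levels were 73.4, 81.3 and 44.7 CPM in sgControl and 44.1, 63.5 and 54.2 CPM in sgCbfb. The groups were separate in LPs and overlapped in Phase 1, where replicate 3 of sgControl lay below replicates 2 and 3 of sgCbfb. Its interaction was 0.82 (95% interval 0.17 to 1.48) and did not pass the test (limma with Benjamini-Hochberg adjustment, adjusted p = 0.31). A guide can disrupt the protein without removing the transcript, so these levels do not measure CBFβ. *Runx1* and *Runx3*, genes of the DNA-binding partners, had interactions of 0.10 (95% interval −0.26 to 0.45) and 0.21 (95% interval −0.12 to 0.54), which did not pass either.

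Of 13239 genes tested by limma with Benjamini-Hochberg adjustment, 157 were called, which required an adjusted p under 0.05 together with a group mean above 10 CPM. The sgCbfb effect was higher in Phase 1 for 78 of them, or 0.589% of the genes tested, and lower for 79, or 0.597%. Without replicate 3 of Phase 1 sgControl the counts were 115 and 117, and by edgeR 90 (0.680%) and 92 (0.695%). At an unadjusted p under 0.05, 6.76% of the 8999 genes above 10 CPM were higher and 5.10% lower. The 157 called genes were 1.74% of these 8999, both directions together, which is the share to set beside the counts of each list. The median interaction was 1.54 over the 78 genes and −1.71 over the 79, beside 0.08 over all 8999 genes above 10 CPM. All called interactions were at least 0.64 in size and 137 exceeded 1. The median standard error was 0.66 for genes between 10 and 20 CPM and 0.22 above 100 CPM, and 92 of the 157 genes were above 100 CPM in a group. For 3533 of the 8999 genes (39.3%) the 95% interval of the interaction lay within 1 log2 unit of 0. For the other genes not called, the interval still held differences between the stages beyond 1 log2 unit.

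**Figure D1:**
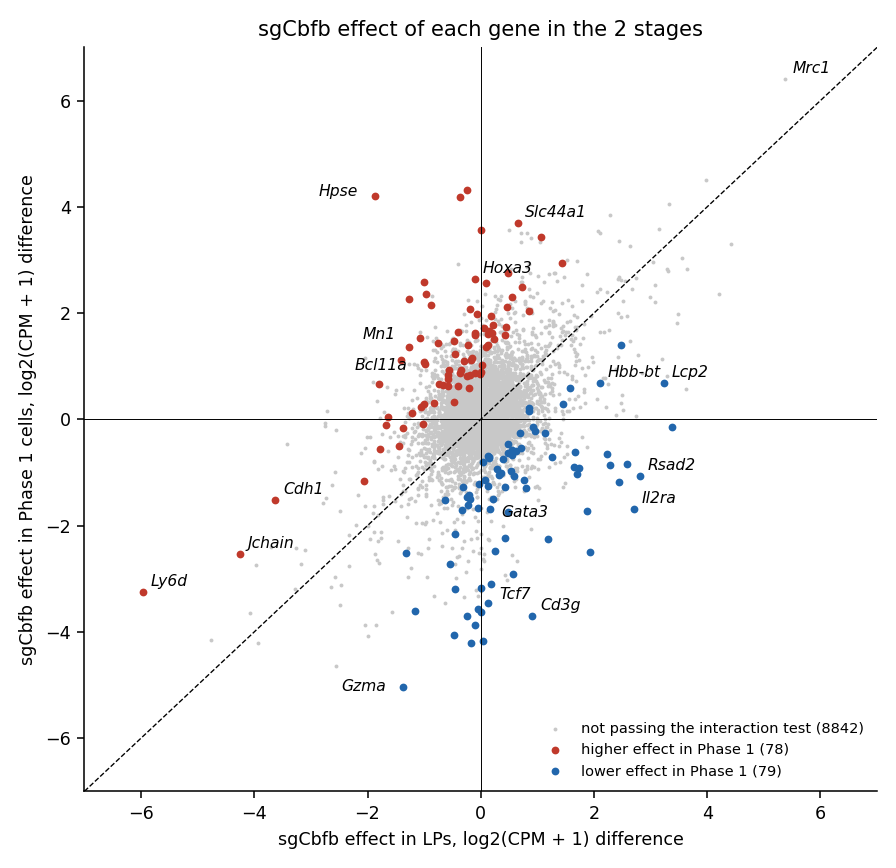
The sgCbfb minus sgControl difference in LPs (x axis) and in Phase 1 cells (y axis), both on the log2(CPM + 1) scale, for the genes over 10 CPM in a group. Each point is a gene, grey where the interaction did not pass the test, and the dashed line marks equal effects at both stages. The 78 genes with a higher effect in Phase 1 lie above the line and the 79 with a lower effect below it, and 47 and 50 of them have effects of opposite sign at the 2 stages.

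The estimated effects had opposite signs at the 2 stages for 47 of the 78 genes with a positive and 50 of the 79 with a negative interaction. These include genes with an LP effect near 0, such as *Tcf7* (0.12), and selection on the interaction itself favours opposite signs. The sgControl and sgCbfb libraries were fully separate at both stages, in opposite directions, for 19 and 21 genes. A further 22 in each direction had the same sign with the larger effect in Phase 1, and 9 and 7 had the same sign with the larger effect in LPs. Set against the change from LP to Phase 1 in control cells, which uses the same libraries and so is a description only, 74 of the 79 genes with a negative interaction were higher in Phase 1 sgControl than in LP sgControl. With sgCbfb, 39 of these 74 were lower in Phase 1 than in LPs and 35 were higher by less. Of the 78 genes with a positive interaction, 66 were lower in Phase 1 sgControl than in LP sgControl. With sgCbfb, 31 of these 66 were higher in Phase 1 than in LPs and 35 were lower by less. Among all 12 libraries, the 3 Phase 1 sgControl libraries alone lay above the other 9 for 37 of the 79 genes, and alone below the other 9 for 23 of the 78.

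Of 16 T-lineage transcription factors over 10 CPM, 4 were called lower (*Tcf7*, *Zfpm1*, *Gata3* and *Myb*), 1 higher (*Satb1*) and 11 did not pass. Their median interaction was −0.80, beside 0.08 over all genes, and 12 of the 16 were negative. Unadjusted, 8 were lower and 2 higher at p under 0.05. Without replicate 3 of Phase 1 sgControl, 6 were called lower and 1 higher.

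*Tcf7* (chr11:52252371-52283014) encodes TCF1, a factor that starts the T-lineage program downstream of Notch. It had 5.90, 1.24 and 6.42 CPM in LP sgControl, 7.05, 1.72 and 5.71 CPM in LP sgCbfb, 183, 149 and 111 CPM in Phase 1 sgControl and 13, 8.17 and 17.1 CPM in Phase 1 sgCbfb. The LP groups, which rest on few reads, overlapped fully, and every Phase 1 sgControl library lay far above every other library. The interaction was −3.58 ± 0.69 (SE, adjusted p = 0.007, limma with Benjamini-Hochberg adjustment). In separate, deeper LP libraries of a second experiment, *Tcf7* was lower with sgCbfb, by −1.80 (adjusted p = 0.00075, limma with Benjamini-Hochberg adjustment). The Phase 1 effect was −3.46. *Gata3* (chr2:9857078-9890034), a zinc finger factor needed for early T cells, showed the same arrangement at a higher level in LPs. It had 38.4, 28.5 and 32.8 CPM in LP sgControl and 38.8, 35.6 and 36.4 CPM in LP sgCbfb, against 131, 152 and 142 CPM in Phase 1 sgControl and 45.4, 44.6 and 39.5 CPM in Phase 1 sgCbfb. All 3 other groups lay between 28.5 and 45.4 CPM, and the interaction was −1.85 ± 0.27 (adjusted p = 0.0005, limma with Benjamini-Hochberg adjustment).

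For *Myb* and *Zfpm1* the groups were also separate in LPs, where sgCbfb was higher. *Myb*, a factor of progenitor growth, had 571, 531 and 480 CPM in LP sgControl and 913, 797 and 874 CPM in LP sgCbfb. In Phase 1, it had 990, 881 and 864 CPM in sgControl and 645, 641 and 609 CPM in sgCbfb. The sgCbfb libraries were thus all above their controls in LPs and all below them in Phase 1, with an interaction of −1.23 ± 0.15. *Zfpm1*, which encodes the GATA cofactor FOG1, had 15.3, 15.5 and 25.0 CPM in LP sgControl and 31.0, 34.4 and 30.0 CPM in LP sgCbfb. Its Phase 1 levels were 80.5, 53.5 and 57.2 CPM in sgControl and 32.4, 34.6 and 19.4 CPM in sgCbfb, again with no overlap at either stage and in opposite directions.

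*Satb1*, which encodes a chromatin organiser of thymocytes, was the exception with a positive interaction. Its LP levels were 842, 824 and 880 CPM in sgControl and 880, 796 and 871 CPM in sgCbfb, and its Phase 1 levels 293, 305 and 263 CPM in sgControl and 554, 545 and 500 CPM in sgCbfb. The LP groups overlapped, while Phase 1 sgControl was lowest, and the interaction was 0.89 ± 0.14 (adjusted p = 0.0014, limma with Benjamini-Hochberg adjustment). *Bcl11b*, a factor of T-lineage commitment, had means of 76.3 and 13.6 CPM in LP sgControl and sgCbfb and 438 and 37.5 CPM in Phase 1, so sgCbfb was lower at both stages. Its interaction of −1.01 (95% interval −1.75 to −0.28) did not pass (adjusted p = 0.25, limma with Benjamini-Hochberg adjustment).

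**Figure D2:**
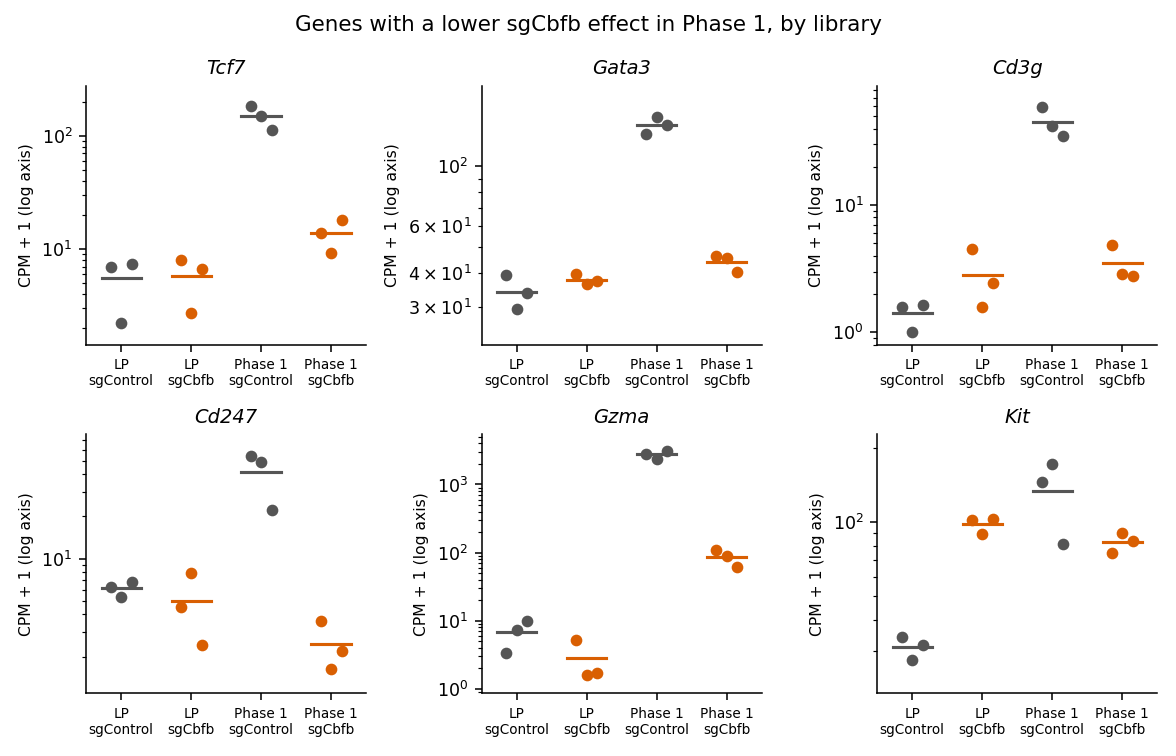
CPM + 1 on a log axis in each of the 12 libraries for 6 genes with a negative interaction. Grey points are sgControl, orange points sgCbfb and bars group means. For *Tcf7*, *Gata3*, *Cd3g*, *Cd247* and *Gzma* the Phase 1 sgControl libraries stand above the other 9, while for *Kit* the LP sgControl libraries stand below the other 9.

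Of 19 genes of the T-cell receptor complex and its signalling over 10 CPM, 5 were called lower (*Cd3g*, *Cd247*, *Lcp2*, *Trgc4* and *Thy1*), 14 did not pass and 0 were called higher by limma. At an unadjusted p under 0.05, 11 were lower and 0 higher, beside 5.10% and 6.76% of all genes over 10 CPM, and by edgeR 6 were called lower and 0 higher. Their median was −1.15 and 16 of 19 were negative. Without replicate 3 of Phase 1 sgControl 8 were called lower. The call of *Thy1*, a surface glycoprotein gene of T cells, was lost in 5 of 12 fits that left out 1 library and that of *Cd247* in 3. In LPs of the second experiment *Thy1* had means of 180 CPM in sgControl and 72.6 CPM in sgCbfb. That LP effect was −1.29 (adjusted p = 4.4e-08, limma with Benjamini-Hochberg adjustment), beside −0.32 in LPs and −1.27 in Phase 1 of the first experiment.

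*Cd247*, the zeta chain of the CD3 complex, had 5.31, 4.33 and 5.78 CPM in LP sgControl and 3.53, 6.88 and 1.43 CPM in LP sgCbfb, against 52.9, 47.7 and 21.3 CPM in Phase 1 sgControl and 2.59, 0.628 and 1.18 CPM in Phase 1 sgCbfb. Its interaction was −3.59 ± 0.76. Replicate 3 of Phase 1 sgControl was lower than the other 2 and still above all 9 remaining libraries. Its exons overlap those of *Pou2f1* on the other strand over 3007 bases, and reads of the 2 strands may not have been counted apart. *Cd3g* (chr9:44969572-44980431), the gamma chain, had 57.9, 40.6 and 33.7 CPM in Phase 1 sgControl and 3.89, 1.89 and 1.77 CPM in Phase 1 sgCbfb. Its LP libraries held 0 to 3.53 CPM, with all 3 LP sgControl libraries at 3 reads or fewer. The interaction of −4.61 ± 0.76 thus rests mostly on the Phase 1 difference of −3.70, beside an LP difference of 0.91. In separate LP libraries of a second experiment the LP difference had the opposite sign, at −1.37 (adjusted p = 0.035, limma with Benjamini-Hochberg adjustment). Means there were 1.63 CPM in sgControl and 0 CPM in sgCbfb.

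*Lcp2* encodes SLP-76, an adaptor of T-cell receptor signalling, and behaved differently. It had 3.54, 0.619 and 3.85 CPM in LP sgControl and 28.9, 37.3 and 25.0 CPM in LP sgCbfb. In Phase 1 it had 44.5, 35.5 and 45.5 CPM in sgControl and 73.9, 78.5 and 53 CPM in sgCbfb. The sgCbfb libraries were higher at both stages without overlap, by far more in LPs, and the negative interaction of −2.55 ± 0.51 records that difference in size. *Cd3d* and *Lat*, further parts of the receptor pathway, had interactions of −2.55 and −2.61 that did not pass (adjusted p = 0.097 and 0.14, limma with Benjamini-Hochberg adjustment), and *Cd3e*, with an interaction of −3.53, was below 10 CPM in every group. *Trbc2*, a constant region of the T-cell receptor beta chain, had an interaction of 0.33 (adjusted p = 0.74, limma with Benjamini-Hochberg adjustment).

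Among 19 genes of the Notch pathway and its targets over 10 CPM, the 4 called were *Cd3g*, *Il2ra*, *Tcf7* and *Gata3*, all lower, and the median was −0.16. At an unadjusted p under 0.05, 5 were lower and 3 higher, and by edgeR 4 were called lower and 1 higher. *Hes1*, a repressor that Notch switches on directly, did not pass. It had 98.1, 103 and 56.5 CPM in Phase 1 sgControl and 99.8, 84.8 and 103 CPM in Phase 1 sgCbfb, which overlapped, after 0 to 8.03 CPM in LPs, and its interaction was −0.98 (95% interval −2.32 to 0.37). *Hes5*, a related repressor, had means of 4.39 and 55.2 CPM in Phase 1 sgControl and sgCbfb, *Nrarp*, a feedback inhibitor of Notch, 57.9 and 116 CPM, and the adaptor gene *Nedd9* 23.6 and 80.8 CPM. Their interactions of 2.30, 2.21 and 2.03 pointed the other way from those of *Tcf7* and *Gata3* and did not pass (adjusted p = 0.14, 0.13 and 0.069, limma with Benjamini-Hochberg adjustment). The receptor genes *Notch1* and *Notch3* had interactions of −0.33 and −1.29, which also did not pass.

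Several of the most negative interactions belonged to effector and surface genes that were near 0 in LPs. *Gzma* encodes granzyme A, a protease of cytotoxic granules. It had 2837, 2378 and 3093 CPM in Phase 1 sgControl and 110, 86.7 and 61.3 CPM in Phase 1 sgCbfb, beside 2.36, 6.19 and 8.99 CPM in LP sgControl and 4.23, 0.573 and 0.713 CPM in LP sgCbfb. The Phase 1 groups lay far apart, the LP groups overlapped, and the interaction was −3.66 ± 0.55 (adjusted p = 0.00074, limma with Benjamini-Hochberg adjustment). It was the 1 gene of 14 over 10 CPM called in the cytotoxic and innate lymphoid list, whose median was −0.22. Unadjusted, 5 of this list were lower and 0 higher at p under 0.05.

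*Cpa3* encodes a carboxypeptidase of mast cell granules that early T progenitors also express. It had 71.3, 48.4 and 80.0 CPM in Phase 1 sgControl and 1.30, 3.77 and 3.54 CPM in Phase 1 sgCbfb, and no LP library held more than 3 reads. The interaction of −4.21 therefore equals a Phase 1 difference on this scale, and it did not pass by edgeR (adjusted p = 0.2). *Tnfrsf9*, the gene of the costimulatory receptor 4-1BB, had 41.6, 28.4 and 60.9 CPM in Phase 1 sgControl and at most 3.10 CPM in each of the other 9 libraries. *Sidt1* was read in the 3 Phase 1 sgControl libraries and in no other, at 8.47, 10.3 and 16.9 CPM, at least 6.37-fold above the limit of 3 reads per library in Phase 1 sgCbfb. It was tested only because of these 3 libraries, and it did not pass by edgeR (adjusted p = 1). *Nrp1*, a semaphorin receptor gene, had 28.9, 45.8 and 16.9 CPM in Phase 1 sgControl and at most 3.89 CPM elsewhere, and its call was lost in 10 of the 12 fits that left out 1 library and by edgeR (adjusted p = 0.26).

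Receptor genes split by direction. Of 25 cytokine and chemokine receptors over 10 CPM, 3 were called lower (*Il2ra*, *Tnfrsf9* and *Kit*) and 2 higher (*Flt3* and *Ccr9*), with a median of 0.00. Unadjusted, 6 were lower and 3 higher at p under 0.05. Without replicate 3 of Phase 1 sgControl, 3 were called lower and 3 higher. *Kit*, the receptor of stem cell factor, had means of 30.2, 97.1, 133 and 82.1 CPM in LP sgControl, LP sgCbfb, Phase 1 sgControl and Phase 1 sgCbfb, in that order. LP sgCbfb and both Phase 1 groups overlapped, with replicate 3 of Phase 1 sgControl at 80.7 CPM, and LP sgControl was below them all. *Il7r*, the receptor gene for IL-7, was the most abundant member not called, with an interaction of 0.00 (95% interval −0.44 to 0.44).

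Promoter windows of 4 of these genes are shown because the genes lay highest in the Phase 1 sgControl libraries and hold a match to the RUNX motif TGTGGT or the RBPJ motif TGGGAA. They were chosen after the values and matches had been seen. The sequences are the 250 bases before the RefSeq start on GRCm38.p6, in the direction of transcription, and capitals mark a match on either strand, where ACCACA is TGTGGT read on the other strand. *Gzma* (chr13:113100982-113101231, minus strand) and *Cpa3* (chr3:20242182-20242431, minus strand) hold 1 RUNX match each, *Cd3g* (chr9:44980432-44980681, minus strand) 1 RBPJ match and *Zfpm1* (chr8:122281891-122282140, plus strand) 2 RBPJ matches.
Gzma: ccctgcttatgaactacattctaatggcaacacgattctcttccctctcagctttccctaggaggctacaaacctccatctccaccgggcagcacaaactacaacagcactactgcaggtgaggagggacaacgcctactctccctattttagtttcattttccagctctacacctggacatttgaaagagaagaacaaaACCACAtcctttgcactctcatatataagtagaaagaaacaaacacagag
Cpa3: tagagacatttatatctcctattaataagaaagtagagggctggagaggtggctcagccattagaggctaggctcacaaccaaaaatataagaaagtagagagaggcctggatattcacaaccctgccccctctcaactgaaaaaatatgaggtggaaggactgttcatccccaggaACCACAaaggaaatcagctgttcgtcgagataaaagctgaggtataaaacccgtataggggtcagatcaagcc
Cd3g: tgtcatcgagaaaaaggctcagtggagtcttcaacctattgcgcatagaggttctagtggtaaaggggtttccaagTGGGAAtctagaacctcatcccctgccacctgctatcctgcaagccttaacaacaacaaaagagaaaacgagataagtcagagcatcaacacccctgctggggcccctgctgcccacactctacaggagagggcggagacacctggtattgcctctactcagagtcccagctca
Zfpm1: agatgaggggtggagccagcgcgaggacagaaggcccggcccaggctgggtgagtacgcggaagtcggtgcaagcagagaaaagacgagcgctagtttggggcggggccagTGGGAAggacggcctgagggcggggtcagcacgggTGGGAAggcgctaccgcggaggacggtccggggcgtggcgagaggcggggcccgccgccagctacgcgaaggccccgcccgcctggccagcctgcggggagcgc

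The motifs do not overlap each other. Over the 11900 windows of the 9345 tested genes that matched a RefSeq start, 11.1% held TGTGGT and 20.1% held TGGGAA. A start was found for 62 of the 79 genes with a negative and 55 of the 78 with a positive interaction. This is under 80% of both sets, so a comparison of motif shares between them is void. A match is a description of these letters and not evidence of binding.

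Of 18 interferon-stimulated genes over 10 CPM, 5 were called lower (*Rsad2*, *Ifitm3*, *Rtp4*, *Ifitm2* and *Ifitm1*), 13 did not pass and 0 were called higher by limma. At an unadjusted p under 0.05, 9 were lower and 0 higher, beside 5.10% and 6.76% of all genes over 10 CPM. By edgeR, and without replicate 3 of Phase 1 sgControl, 6 were called lower and 0 higher. The call of *Rtp4* was lost in 9 of 12 fits that left out 1 library. The median was −1.16 and 16 of 18 were negative. Summed over the list, the level was 1075 to 1159 CPM in LP sgControl, 1106 to 1291 CPM in LP sgCbfb, 2499 to 2571 CPM in Phase 1 sgControl and 1073 to 1115 CPM in Phase 1 sgCbfb. *Ifitm1*, which encodes a membrane protein that hinders viral entry, was the most abundant of the 5 and held a large part of this sum in every group. It had 629, 658 and 572 CPM in LP sgControl, 646, 620 and 539 CPM in LP sgCbfb, 1612, 1483 and 1802 CPM in Phase 1 sgControl and 564, 498 and 487 CPM in Phase 1 sgCbfb. Phase 1 sgControl stood above the other 9 libraries, and the interaction was −1.61 ± 0.15 (adjusted p = 7.7e-06, limma with Benjamini-Hochberg adjustment).

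*Ifitm2*, its neighbour in the family, had effects of opposite sign, with 37.8, 54.5 and 49.5 CPM in LP sgControl and 91.0, 74.0 and 81.4 CPM in LP sgCbfb, then 216, 226 and 334 CPM in Phase 1 sgControl and 107, 102 and 101 CPM in Phase 1 sgCbfb. *Rsad2*, the gene of the antiviral enzyme viperin, was low throughout. It had 1.18, 2.48 and 1.28 CPM in LP sgControl, 16.9, 10.9 and 27.1 CPM in LP sgCbfb, 8.47, 8.39 and 3.67 CPM in Phase 1 sgControl and 1.30, 2.51 and 4.71 CPM in Phase 1 sgCbfb. The LP groups were separate, with sgCbfb higher, and the Phase 1 groups overlapped, so the larger difference behind its interaction of −3.87 was that in LPs. *Irf1*, the most abundant list member not called, had an interaction of 0.30 (95% interval −0.74 to 1.34, adjusted p = 0.9, limma with Benjamini-Hochberg adjustment). Without replicate 3 of Phase 1 sgControl its interaction was −0.43, which did not pass either.

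Genes of erythroid and megakaryocyte cells gave 3 negative calls among 5 over 10 CPM, *Nfe2*, *Zfpm1* and *Hbb-bt*. Unadjusted, 3 were lower and 1 higher at p under 0.05. *Hbb-bt*, a beta globin gene with a near-identical copy between which reads can be split, had 110, 157 and 128 CPM in LP sgControl, 566, 595 and 539 CPM in LP sgCbfb, 1564, 1549 and 1585 CPM in Phase 1 sgControl and 2488, 2440 and 2650 CPM in Phase 1 sgCbfb. The sgCbfb libraries were higher at both stages with no overlap, by a larger ratio in LPs, giving −1.42 ± 0.16. The copy, *Hbb-bs*, was at 0 CPM in every LP library and at most 1.30 CPM in Phase 1. *Hba-a1*, the alpha globin gene of mature red cells, was at 0 in every library.

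Of 18 transcription factors of stem and progenitor cells over 10 CPM, 6 were called higher (*Mn1*, *Bcl11a*, *Irf8*, *Mef2c*, *Hoxa10* and *Hoxa9*), 1 lower (*Nfe2*) and 11 did not pass. The median interaction was 0.50. Unadjusted, 8 were higher and 2 lower at p under 0.05, beside 6.76% and 5.10% of all genes over 10 CPM. Without replicate 3 of Phase 1 sgControl, 7 were called higher and 2 lower.

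The *Hoxa* genes encode homeobox factors that keep progenitors undifferentiated, and *Mef2c* a factor of lymphoid progenitors. *Hoxa9* had 889, 775 and 797 CPM in LP sgControl, 820, 687 and 707 CPM in LP sgCbfb, 273, 252 and 235 CPM in Phase 1 sgControl and 554, 525 and 613 CPM in Phase 1 sgCbfb. LP groups overlapped, and Phase 1 sgCbfb lay between them and Phase 1 sgControl, with an interaction of 1.31 ± 0.16 (adjusted p = 4.2e-05, limma with Benjamini-Hochberg adjustment). *Hoxa10* was close to this, at 217, 218 and 223 CPM and 257, 236 and 227 CPM in LPs and at 45.9, 47.7 and 60.9 CPM and 156, 163 and 155 CPM in Phase 1, sgControl before sgCbfb, although its LP groups did not overlap. *Mef2c* had 1037, 923 and 924 CPM in LP sgControl and 1148, 1061 and 993 CPM in LP sgCbfb. In Phase 1, *Mef2c* had 246, 291 and 359 CPM in sgControl and 997, 946 and 863 CPM in sgCbfb, so the sgCbfb libraries of Phase 1 overlapped those of both LP groups.

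*Hoxa5* was also called, with an interaction of 2.27 ± 0.31, and so was *Hoxa3*, at 2.75 ± 0.64. *Hoxa3* had 7.76, 14.8 and 1.47 CPM in Phase 1 sgControl against 63.5, 30.8 and 39.5 CPM in Phase 1 sgCbfb and 30.0 to 52.2 CPM in LPs. Its call was lost in 8 of 12 fits that left out 1 library, and 5 other annotated genes overlap its exons. *Hoxa7*, by contrast, had an interaction of 0.71 that did not pass (adjusted p = 0.16, limma with Benjamini-Hochberg adjustment).

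*Flt3* and *Socs2* belong to the cytokine signalling of progenitors, as the receptor of FLT3 ligand and as a feedback inhibitor. *Socs2* had 2297, 2222 and 2123 CPM in LP sgControl and 2778, 2455 and 2565 CPM in LP sgCbfb. In Phase 1, *Socs2* had 589, 546 and 541 CPM in sgControl and 1668, 1558 and 1555 CPM in sgCbfb. No groups overlapped at either stage, and the interaction of 1.28 ± 0.13 (adjusted p = 7.7e-06, limma with Benjamini-Hochberg adjustment) was one of the most precise of those called. *Flt3* had 284, 279 and 255 CPM in LP sgControl, 318, 272 and 191 CPM in LP sgCbfb, 36.7, 56.1 and 15.4 CPM in Phase 1 sgControl and 104, 109 and 82.5 CPM in Phase 1 sgCbfb. The LP groups overlapped and the Phase 1 groups did not. Its interaction was 1.69 ± 0.41, and it was lost in 8 of 12 fits that left out 1 library, while without replicate 3 of Phase 1 sgControl it was 1.19 (adjusted p = 0.00081, limma with Benjamini-Hochberg adjustment).

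**Figure D3:**
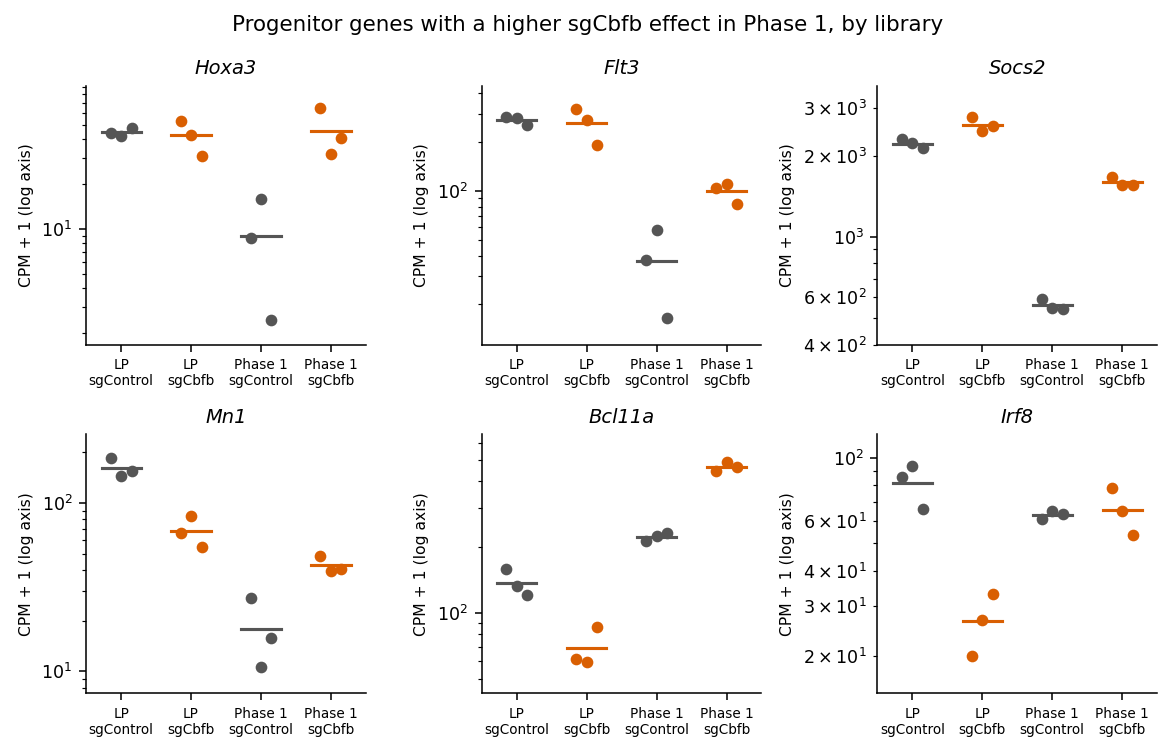
CPM + 1 on a log axis in each of the 12 libraries for 6 genes with a positive interaction, with sgControl in grey, sgCbfb in orange and bars at group means. For *Hoxa3*, *Flt3* and *Socs2* Phase 1 sgControl lies below the other 9 libraries, while for *Bcl11a* the LP sgCbfb libraries are lowest and the Phase 1 sgCbfb libraries highest, and for *Irf8* the LP sgCbfb libraries lie below the other 9.

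The transcription factor genes *Irf8* and *Runx2*, both active in plasmacytoid dendritic cells, reached a positive interaction in different ways. *Irf8* had 84.4, 92.3 and 64.9 CPM in LP sgControl and 19.0, 25.8 and 32.1 CPM in LP sgCbfb, but 60.0, 63.9 and 62.4 CPM in Phase 1 sgControl and 77.2, 64.1 and 52.4 CPM in Phase 1 sgCbfb. It was separate in LPs, where sgCbfb was lower, and overlapped in Phase 1 (interaction 1.67 ± 0.31). *Runx2* had 68.5, 42.1 and 47.5 CPM and 49.4, 45.9 and 47.8 CPM in LPs, sgControl before sgCbfb, which overlapped. In Phase 1, *Runx2* had 21.2, 32.9 and 18.3 CPM in sgControl and 86.9, 73.5 and 63.1 CPM in sgCbfb, which did not overlap (interaction 1.73 ± 0.34, adjusted p = 0.0087, limma with Benjamini-Hochberg adjustment). An antisense gene, *Runx2os1*, overlaps its exons over 519 bases.

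The window of *Runx2* (chr17:44814628-44814877, minus strand) is shown because it is the RUNX gene with a called interaction. It holds 1 match to the RUNX motif, in capitals.
Runx2: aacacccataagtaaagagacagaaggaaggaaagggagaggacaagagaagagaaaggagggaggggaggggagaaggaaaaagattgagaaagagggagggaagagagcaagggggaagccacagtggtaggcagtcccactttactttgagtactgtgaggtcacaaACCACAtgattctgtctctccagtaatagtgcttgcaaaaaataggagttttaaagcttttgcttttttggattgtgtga

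Of 15 dendritic genes over 10 CPM, 5 were called higher (*Runx2*, *Flt3*, *Irf8*, *Cox6a2* and *Ccr9*), with a median of 0.39. The interaction was negative for 6 of the 15, down to −2.26. Unadjusted, 6 were higher and 3 lower at p under 0.05. *Cox6a2* had means of 589 and 171 CPM in LPs and 196 and 133 CPM in Phase 1, sgControl before sgCbfb. It was thus lower with sgCbfb at both stages, by less in Phase 1. *Ccr9*, a chemokine receptor gene, had means of 989 and 235 CPM in LP sgControl and sgCbfb and of 131 and 58.0 CPM in Phase 1, so sgCbfb was lower at both stages and by less in Phase 1, and its call was lost in 5 of 12 fits that left out 1 library. *Siglech*, a defining plasmacytoid dendritic marker, was at or below 3.55 CPM on average in every group. Of 12 B-lineage and lymphoid genes over 10 CPM, 3 were called higher (*Ly6d*, *Jchain* and *Ighm*) and the median was 0.35. Unadjusted, 4 were higher and 2 lower at p under 0.05. For *Ly6d* and *Jchain*, sgCbfb was lower at both stages and by a smaller ratio in Phase 1. *Ly6d* had means of 144 and 1.37 CPM in LPs and 341 and 33.8 CPM in Phase 1, sgControl before sgCbfb. Its LP sgCbfb libraries held 3 reads or fewer. *Jchain* had 778 and 41.2 CPM in LPs and 94.3 and 15.3 CPM in Phase 1. *Ighm*, the gene of the IgM heavy chain, had 320, 336 and 250 CPM in LP sgControl, 245, 189 and 180 CPM in LP sgCbfb, 62.8, 51.6 and 43.3 CPM in Phase 1 sgControl and 128, 88.6 and 86.6 CPM in Phase 1 sgCbfb. Its sgCbfb libraries were below the controls in LPs and above them in Phase 1, without overlap at either stage.

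Of 14 monocyte and macrophage genes over 10 CPM, 2 were called higher (*Lgals3* and *Adgre1*) and 1 lower (*Clec12a*), with a median of 0.33. Unadjusted, 4 were higher and 2 lower at p under 0.05. The call of *Clec12a*, a lectin receptor gene, was lost in 7 of 12 fits that left out 1 library. Its LP effect was −1.27 in the second experiment (adjusted p = 8.2e-08, limma with Benjamini-Hochberg adjustment), beside −0.21 in LPs and −1.43 in Phase 1 of the first. *Adgre1*, the gene of the F4/80 antigen, had 64.9, 56.3 and 59.7 CPM in LP sgControl and 100, 95.2 and 106 CPM in LP sgCbfb, then 16.2, 23.2 and 12.5 CPM in Phase 1 sgControl and 93.4, 94.9 and 110 CPM in Phase 1 sgCbfb. The sgCbfb libraries were alike at both stages, and the positive interaction of 1.77 ± 0.29 went with the lower Phase 1 sgControl level. The summed level of the monocyte list was 475 to 577 CPM in LP sgControl, 1091 to 1131 CPM in LP sgCbfb, 560 to 601 CPM in Phase 1 sgControl and 1020 to 1061 CPM in Phase 1 sgCbfb. The defining markers *Lyz2* and *Csf1r* reached at most 10.1 CPM in any library. The part of other cells in these results was not tested.

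Most of the largest positive interactions belonged to genes that were highest in Phase 1 sgCbfb and low elsewhere. *Hpse* encodes heparanase, which cleaves heparan sulfate. It had 8.85, 5.57 and 3.85 CPM in LP sgControl, 0, 1.72 and 1.43 CPM in LP sgCbfb, 3.53, 0 and 5.87 CPM in Phase 1 sgControl and 59.6, 57.2 and 53.6 CPM in Phase 1 sgCbfb. Phase 1 sgCbfb stood far above every other library, and LP sgControl was at least 3.06-fold above the limit of 3 reads in LP sgCbfb. The interaction was 6.06 ± 0.88 (adjusted p = 0.00047, limma with Benjamini-Hochberg adjustment). The LP effect of −1.86 was not matched in the separate LP libraries of a second experiment, where it was −0.45 (adjusted p = 0.5, limma).

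*Stc1*, which encodes a secreted glycoprotein, had 26.6, 21.4 and 22.4 CPM in Phase 1 sgCbfb and at most 1.41 CPM in the other libraries, at least 11.2-fold above the limit in Phase 1 sgControl. *Spic*, a transcription factor gene of red pulp macrophages, had 11.7, 10.1 and 18.9 CPM in Phase 1 sgCbfb and at most 1 read in any other library, so that it was tested only because of Phase 1 sgCbfb. The interactions of *Stc1* and *Spic* did not pass by edgeR on the reads (adjusted p = 0.07 and 1). *Slc44a1*, the gene of a choline transporter, had 81.7, 66.6 and 69.0 CPM in Phase 1 sgCbfb, against 2.82, 7.74 and 4.40 CPM in Phase 1 sgControl and 7.08 to 18.3 CPM in LPs, with an interaction of 3.04 ± 0.52.

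*Igf1* and *Sdc1* were arranged otherwise, with LP sgControl highest. *Igf1*, a growth factor gene, had 109, 91.6 and 72.6 CPM in LP sgControl and 42.3, 48.8 and 45.7 CPM in LP sgCbfb. In Phase 1, *Igf1* had 3.53, 3.87 and 5.13 CPM in sgControl and 24.0, 23.2 and 29.5 CPM in sgCbfb. The sgCbfb libraries were below the controls in LPs and above them in Phase 1, with an interaction of 3.33 ± 0.37 (adjusted p = 2.1e-05, limma with Benjamini-Hochberg adjustment). *Sdc1*, which encodes the heparan sulfate proteoglycan syndecan-1, had 56.1, 52.6 and 54.0 CPM and 34.6, 29.3 and 24.3 CPM in LPs, and 9.18, 3.23 and 10.3 CPM and 32.4, 35.2 and 34.8 CPM in Phase 1, sgControl before sgCbfb. *Cd81*, a tetraspanin gene, had 26.8, 20.6 and 31.5 CPM in Phase 1 sgControl and 113 to 191 CPM in the other 9 libraries (interaction 2.28 ± 0.23). Of other tetraspanin genes, *Cd9* was called higher (3.53) and *Cd82* lower (−1.72), and their calls were lost in 8 and 9 of 12 fits that left out 1 library.

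**Figure D4:**
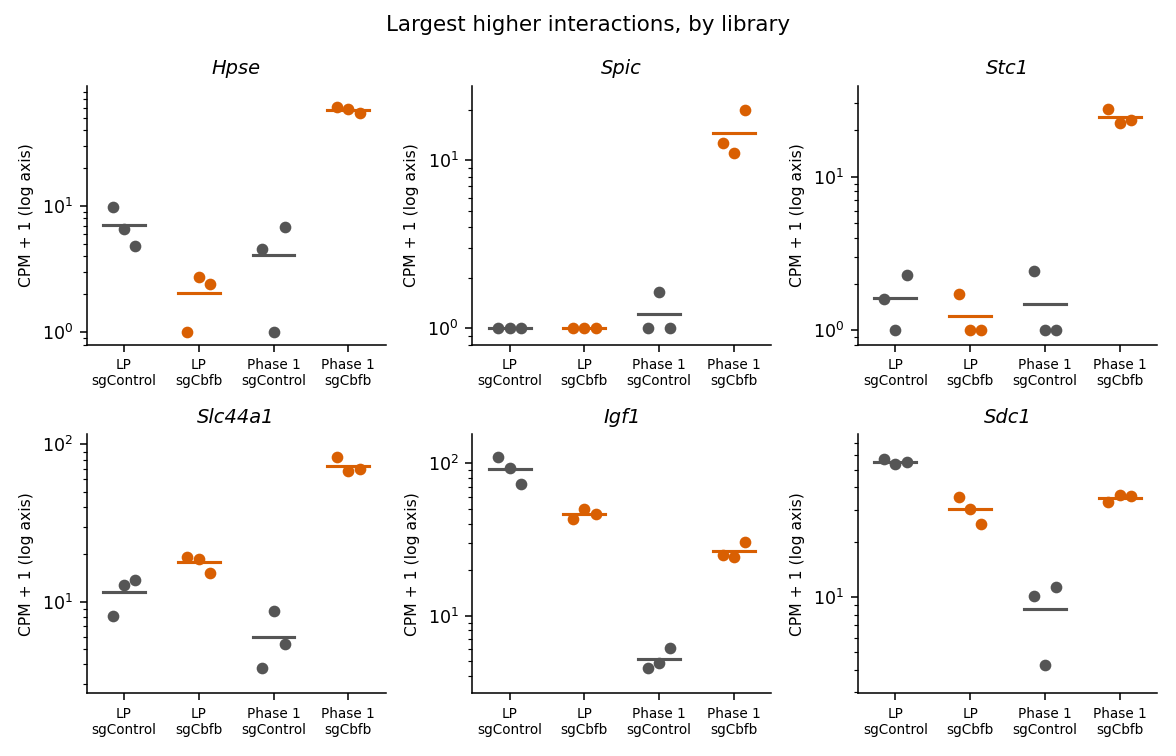
CPM + 1 on a log axis in each of the 12 libraries for 6 of the genes with the largest positive interactions, with sgControl in grey, sgCbfb in orange and bars at group means. For *Hpse*, *Spic*, *Stc1* and *Slc44a1* the Phase 1 sgCbfb libraries stand above the other 9, and for *Igf1* and *Sdc1* the order of sgControl and sgCbfb is reversed between the stages.

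Some lists held no gene called by limma. The 30 genes of DNA replication and mitosis had 0 calls, with interactions between −0.21 and 1.24, a median of 0.27 and 25 of 30 positive. At an unadjusted p under 0.05, 7 were higher and 0 lower, beside 6.76% and 5.10% of all genes over 10 CPM. By edgeR, and without replicate 3 of Phase 1 sgControl, 1 was called, higher. The most abundant of them, *Top2a*, the gene of a DNA topoisomerase, had 0.10 (95% interval −0.19 to 0.39). The 23 glycolysis and hypoxia genes, the 24 genes of sterol and fatty acid synthesis and the 11 G1 cyclins and CDK inhibitors over 10 CPM had medians of 0.08, 0.10 and 0.12, with 0 calls by limma and by edgeR. At an unadjusted p under 0.05, these 3 lists held 3, 0 and 1 genes. In the p53 list, *Pmaip1*, the gene of the cell death protein NOXA, was the 1 called of 14, and *Ddit4*, an inhibitor of mTORC1, the 1 called of 17 in the amino acid list. Their calls were lost in 4 and 8 of 12 fits that left out 1 library. Each of these lists held 3 genes higher and 0 lower at an unadjusted p under 0.05.

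**Figure D5:**
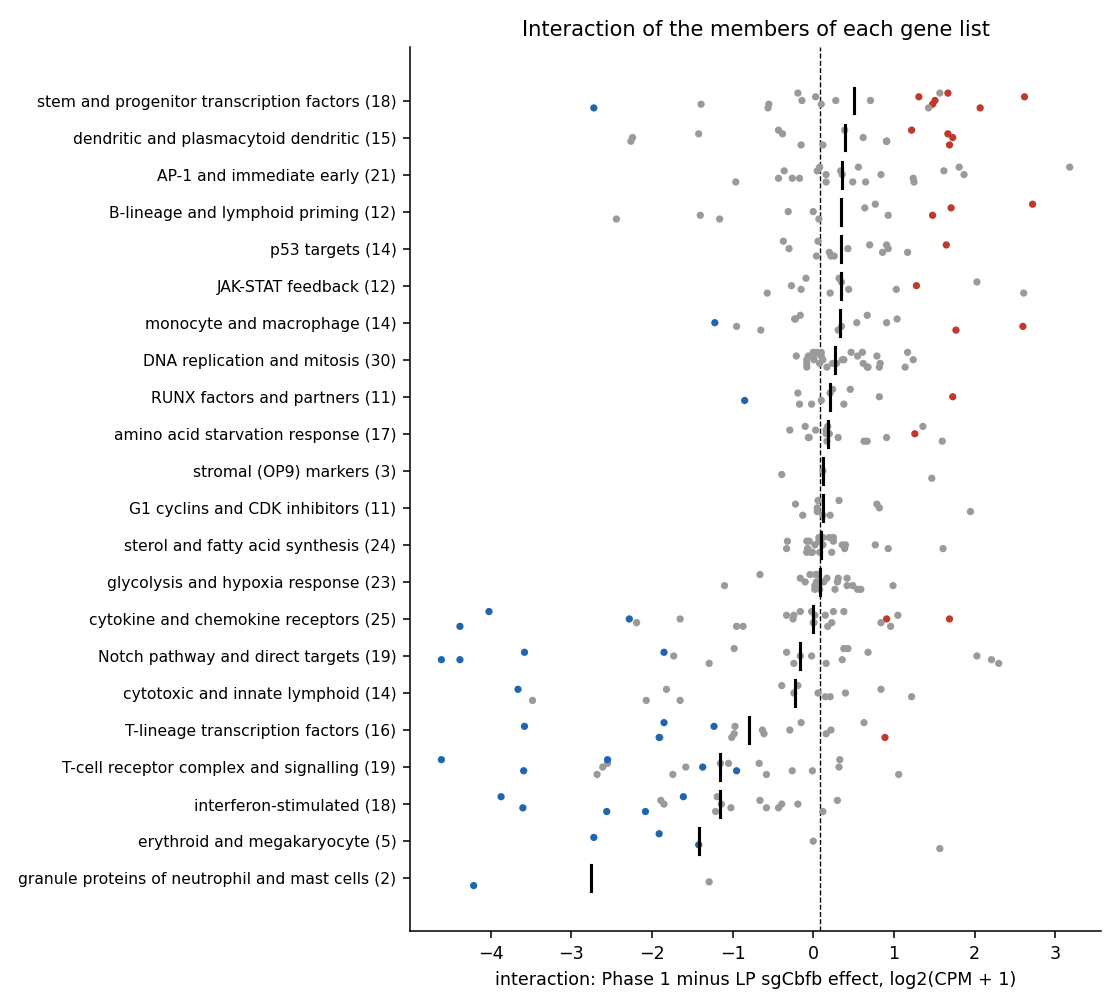
The interaction on the log2(CPM + 1) scale of each member over 10 CPM of 22 gene lists. Red and blue points are members called higher and lower, black bars are list medians and the dashed line is the median of 0.08 over all genes over 10 CPM. Calls are negative in the T-cell receptor and interferon lists, and mostly positive in the stem and progenitor list.

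Of the 8 genes with the strongest sgCbfb effect averaged over the stages, 4 in each direction, *Ly6d* was the 1 with a called interaction. *Mrc1*, the gene of the macrophage mannose receptor, had means of 4.86 and 221 CPM in LP sgControl and sgCbfb and 1.62 and 210 CPM in Phase 1. Its interaction of 1.04 had a 95% interval of 0.03 to 2.05 and did not pass (adjusted p = 0.47, limma with Benjamini-Hochberg adjustment). *F13a1*, the gene of a clotting factor subunit, had 11.2 and 190 CPM in LPs and 2.76 and 80.9 CPM in Phase 1, with an interaction of 0.54 (95% interval −0.35 to 1.42). A missed threshold does not show equal effects, and both intervals include differences of over 1 log2 unit.

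The LP side of the interaction was also read in the second experiment, which has separate LP libraries with sgControl and sgCbfb, 3 each, and was normalised on its own, so the values are set side by side without a test across tables. Of 13177 genes tested there, 1272 passed in either direction, or 9.65%. Of the called genes, 75 in each direction were tested there. The LP effect had the same sign in both experiments for 68 of the 75 genes with a positive interaction and for 63 of the 75 with a negative one, beside 68.2% of all 8975 genes over 10 CPM. Where it passed there, it had the sign of the interaction for 11 and 10 genes and the opposite sign for 33 and 28. Among the 10 were *Thy1* (−1.29), *Clec12a* (−1.27), *Trgc4* (−0.64) and *Ifitm1* (−0.64). Below 10 CPM there, *Tnfrsf9* (−2.13), *Nrp1* (−1.56) and *Cd247* (−1.44) were also lower (adjusted p under 0.05, limma). The Phase 1 effect less this LP effect kept its sign for 75 and 73 of the 75 genes. Among called genes with an LP effect over 1 in size, the sign was shared by 23 of 23 and 24 of 24, beside 95.6% of all 504 such genes, and 19 and 20 passed the test there with that sign. *Il2ra* had LP effects of 2.71 and 3.66 and *Colq* of 1.93 and 1.66 in the first and second experiment. *Tcf7* had a mean of 2.54 CPM in sgControl and 0 CPM in sgCbfb of the second experiment, an effect of −1.80, where the LP groups of the first had overlapped. The LP effect of *Irf8* there was −0.34 (adjusted p = 0.33, limma with Benjamini-Hochberg adjustment), so its lower LP level with sgCbfb was not matched by a called difference in those libraries.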

How the data were processed

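Libraries were made with a 3′ mRNA kit, and gene values were deposited by the authors as CPM per gene and library, although the files name them TPM. The submitters' processing notes list fastp, STAR and mm10, with versions not given in the sources used here, and give no strand setting for counting. The values were whole multiples of 1 read for 100.0% of entries, so reads were recovered. Libraries of the 2 experiments held 1363263 to 1743319 and 3354483 to 4326782 reads, respectively, which limits low genes. Average columns in the tables, the authors' own means, were not used, and 1 line naming no gene was left out. *Emr4* had no entry under that symbol.

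Genes that reached 1 CPM in 3 or more of the 12 libraries were tested on log2(CPM + 1), which understates the change of low genes, with limma 3.58.1 (R 4.3.3) in 1 fit of the 4 groups, variances moderated along a trend and Benjamini-Hochberg adjustment. edgeR 4.0.16 on recovered reads was an alternative, as were other pseudocounts (0.1 and 5), filters, scalings, variance models, a replicate block and leaving out each library. Values were handled with Python 3.11.15 and pandas 2.3.3. The fit was tested on simulated data. Intervals of an interaction come from the spread between libraries. Floors (3 reads per library) cover counting error only.

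Named genes were the 12 with the largest called interaction in each direction, up to 4 called and the most abundant uncalled member of each list, the 4 per direction with the largest average effect, the RUNX genes with *Cbfb*, and the 4 per direction with the largest opposite effects. The genes and lists were chosen with earlier results of these data known. Other genes named, among them *Hoxa5*, *Hoxa7*, *Hoxa9*, *Hoxa10*, *Mef2c*, *Satb1*, *Ifitm1*, *Bcl11b*, *Cd81*, *Cd9*, *Cd82* and *Thy1*, were singled out after their values were seen, and some items are not reported here. Promoter windows came from RefSeq on GRCm38.p6.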

Additional observations from a re-analysis of the deposited data

Results flagged for a closer look

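In 19 of the 78 called genes with a positive and 21 of the 79 with a negative interaction, the 3 sgCbfb libraries separated fully from the 3 sgControl libraries at both stages and in opposite directions. Only called genes were searched, and the share over all genes tested was not computed. Groups of 3 were too small for a test of single outlying libraries. Among the named genes, those with sgCbfb below sgControl in LPs and above it in Phase 1 were *Hpse* (interaction 6.06), *Igf1* (3.33), *Sdc1* (3.04), *Mn1* (2.62), *Lrp1* (2.53), *Bcl11a* (2.07) and *Ighm* (1.48). *Mn1*, a transcriptional coregulator of progenitors, had 183, 144 and 154 CPM in LP sgControl, 64.9, 82.6 and 53.5 CPM in LP sgCbfb, 26.1, 9.68 and 14.7 CPM in Phase 1 sgControl and 47.3, 38.3 and 39.5 CPM in Phase 1 sgCbfb. *Lrp1*, an endocytic receptor gene, had 105, 99.1 and 86.7 CPM and 41.6, 37.3 and 29.3 CPM in LPs, and 21.2, 25.8 and 6.60 CPM and 42.1, 35.2 and 28.9 CPM in Phase 1, sgControl before sgCbfb.

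In the other direction, with sgCbfb above sgControl in LPs and below it in Phase 1, were *Colq* (−4.42), *Il2ra* (−4.38), *Muc13* (−3.61), *Ifitm3* (−3.60), *Tubb3* (−3.43), *Nfe2* (−2.72), *Rtp4* (−2.56), *Ifitm2* (−2.08), *Zfpm1* (−1.91) and *Myb* (−1.23). *Il2ra*, the gene of the CD25 chain, had 4.72, 2.48 and 0.642 CPM in LP sgControl, 17.6, 17.2 and 25.7 CPM in LP sgCbfb, 410, 355 and 348 CPM in Phase 1 sgControl and 121, 106 and 120 CPM in Phase 1 sgCbfb. *Colq* and *Muc13* were low, with LP sgCbfb at least 2.69-fold and 4.40-fold above the limit of 3 reads per library in LP sgControl. Exons of *Muc13* overlap those of *Gm15657* on the other strand over 184 bases, and reads of the strands may not have been counted apart. *Gm15657* was itself called (−3.52), with LP means of 2.74 CPM in sgControl and 32.1 CPM in sgCbfb. Each of these interactions passed the test by selection, since only called genes were searched, and passing adds no support. Of 12 fits that left out 1 library, *Rtp4* was called in 3, *Muc13* in 11 and each of the others in all 12. In LPs of the second experiment the effect had the same sign for each of the genes listed here, with an adjusted p of 0.5 for *Hpse* and 0.25 for *Tubb3* (limma with Benjamini-Hochberg adjustment) and under 0.05 for the others.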

How the results depend on the processing

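The number of called genes depended on the variance model more than on scaling or filters. Without moderated variances 32 genes were called higher and 30 lower, and with moderation but no trend 29 and 44. Leaving out 1 library gave 52 to 115 higher and 52 to 117 lower, the largest without replicate 3 of Phase 1 sgControl and the smallest number of lower calls without replicate 2 of Phase 1 sgCbfb. The other settings stayed within 1.5 times the main counts, edgeR with TMM giving 90 higher and 92 lower and sharing 145 of the 157 genes. With a replicate block 99 were higher and 82 lower. Between groups, same-numbered libraries correlated at −0.0403 to 0.139 in their deviations and differently numbered ones at −0.13 to 0.068. Not every library correlated best with its own number. These correlations are too weak to settle whether the numbers pair the samples. All called genes kept their sign in every setting that tested them, 88 of 157 were called in every fit that left out 1 library, and 34 in every setting, among them *Gata3*, *Ifitm1*, *Mef2c*, *Hoxa9*, *Socs2* and *Igf1*. Median-of-ratios scaling moved the median interaction from 0.0576 to 0.00485.

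Sign changes occurred in named genes whose interaction did not pass. With a pseudocount of 5, *Cd7* was −0.76, *Tgfb2* −0.27 and *F13a1* −0.10. By edgeR with TMM and median-of-ratios factors, *Dusp2* was −0.13 and −0.14, *Irf1* −0.02 and −0.03 and *Pkm* −0.03 and −0.04. Leaving out 1 library gave −0.78 to 0.04 for *Chdh*, −0.53 to 0.58 for *Dusp2*, −0.43 to 0.74 for *Irf1*, −0.10 to 0.81 for *Smim5*, −0.05 to 0.21 for *Pkm*, −0.05 to 0.14 for *Cdkn1a*, −0.04 to 0.22 for *Sox4* and −0.03 to 0.18 for *Runx1*. The lowest values of *Dusp2*, *Irf1*, *Cdkn1a* and *Sox4* came from leaving out replicate 3 of Phase 1 sgControl. *Chdh*, *Smim5*, *Pkm* and *Runx1* kept their sign without that library. The cause was not tested. For genes near 0 in LPs, depth leaves the interaction to rest mostly on the Phase 1 difference.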

Other observations

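Several called genes outside the lists, singled out after their values were seen, had large values. *Nrgn*, which encodes the calmodulin-binding protein neurogranin, had 765, 742 and 696 CPM in LP sgControl and 304, 320 and 316 CPM in LP sgCbfb, but 1319, 1286 and 1422 CPM in Phase 1 sgControl and 1378, 1607 and 1383 CPM in Phase 1 sgCbfb. The LP groups were far apart and the Phase 1 groups overlapped, with an interaction of 1.34 ± 0.14. *Fabp5*, a fatty acid binding protein gene, had 487, 487 and 444 CPM and 904, 1003 and 694 CPM in LPs, and 212, 227 and 251 CPM and 1012, 973 and 837 CPM in Phase 1, sgControl before sgCbfb. Its sgCbfb libraries were above their controls at both stages, by a larger ratio in Phase 1 (interaction 1.17 ± 0.18). *Cdh1*, the E-cadherin gene, had 21.2, 22.3 and 14.1 CPM in LP sgControl and at most 1.43 CPM in LP sgCbfb, against 234, 216 and 165 CPM in Phase 1 sgControl and 68.7, 67.2 and 76.0 CPM in Phase 1 sgCbfb. Here sgCbfb was lower at both stages, by a smaller ratio in Phase 1 (interaction 2.12 ± 0.45, not called in 2 of 12 fits that left out 1 library).

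*Timp2*, a metalloproteinase inhibitor gene, had 549, 439 and 500 CPM in Phase 1 sgControl and 64.8 to 118 CPM in the other 9 libraries (interaction −2.17 ± 0.24). *Fabp5* and *Timp2* thus differed in which group stood apart, Phase 1 sgControl being lowest for the first and highest for the second. *Tnni2*, a troponin gene, had 157, 160 and 134 CPM in Phase 1 sgCbfb and 30.1 to 50.2 CPM in the other 9 (interaction 2.06 ± 0.28). *Armcx4* had 36.0, 45.2 and 34.7 CPM in LP sgControl and 233, 202 and 215 CPM in LP sgCbfb, and 33.9, 32.3 and 29.3 CPM against 86.2, 82.3 and 85.5 CPM in Phase 1, so that sgCbfb was higher at both stages and by less in Phase 1, and its call was lost in 7 of 12 fits that left out 1 library. Of 21 AP-1 and immediate early genes over 10 CPM, limma called 0 and edgeR 0, with 5 higher and 1 lower at an unadjusted p under 0.05 and a median of 0.36. *Dusp6*, a phosphatase gene of MAP kinase feedback, had means of 14.4, 21.1, 31.0 and 117 CPM in LP sgControl, LP sgCbfb, Phase 1 sgControl and Phase 1 sgCbfb, and its interaction of 1.81 (95% interval 0.49 to 3.13) did not pass.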
